A study of Homo sapiens with 6 samples.

Results

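The respiratory chain genes of this study are the subunits of complexes I to V and cytochrome c. They were taken from the gene count table by a rule on symbols. The rule itself uses no measured value, but it was chosen with earlier results of these data known. It took rows for NDUFA, NDUFB, NDUFC, NDUFS and NDUFV subunits, SDHA to SDHD, the UQCR genes and CYC1, CYCS, the COX4 to COX8 genes, the ATP5F1, ATP5M, ATP5P and ATP5IF1 genes, and the mitochondrially encoded MT-ND, MT-CYB, MT-CO and MT-ATP genes. This gave 102 of the 17081 rows, of which 89 were nuclear and 13 mitochondrially encoded. RNA was sequenced from tumour tissue of DMS114, a human small cell lung cancer line, grown in a model in which the cells invade the sciatic nerve. There were 3 libraries from the distal invasive region and 3 from the proximal region, the 2 regions that the study compared. All 6 libraries came from the same cell line and were made from polyadenylated RNA. Neither the host nor the animal behind each library is labelled, and the p-values therefore measure no more than the spread among these 6 samples.

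The respiratory chain passes electrons from NADH and succinate to oxygen and pumps protons across the inner mitochondrial membrane, and ATP synthase (complex V) uses the gradient to make ATP. Complexes I, III, IV and V are built from subunits of both genomes, whereas complex II and cytochrome c are nuclear alone. The nuclear genes are transcribed one by one in the nucleus, while the mitochondrial genes are cut from long transcripts of both strands of the circular genome. Several complex IV subunits have a general form and a second form typical of heart and skeletal muscle or testis.

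Total counts were 22849866, 24217043 and 16171106 in distal libraries 1, 2 and 3, against 26116191, 21865148 and 22066179 in proximal libraries 1, 2 and 3. Levels are given below as CPM (counts-per-million), read counts divided by library size, with library sizes scaled by the trimmed mean of M values (TMM). Of the listed tumour markers, SYP stood between 56.9 and 63.9 CPM and YAP1 between 167 and 187 CPM. The 24 skeletal muscle markers summed to 51.2, 80.1 and 2990 CPM in the distal libraries and to 52.6, 85.2 and 462 CPM in the proximal libraries, so that distal 3 and proximal 3 stood apart. MYH7, a slow muscle myosin, was at 106 CPM in distal 3, at 3.41 CPM in proximal 3 and at no more than 0.0462 CPM in the other 4 libraries. The 9 Schwann cell markers in the table summed to 164, 209 and 165 CPM in the distal libraries and to 155, 155 and 244 CPM in the proximal libraries. Listed fibroblast genes summed to between 4540 and 5610 CPM in distal and between 5420 and 6130 CPM in proximal libraries. Most of this sum was COL3A1, at 3730 to 5100 CPM over the 6 libraries, followed by DCN and LUM at 297 to 584 CPM. COL1A1 stood at 7.7 to 62.2 CPM and COL1A2 at 3.79 to 40.2 CPM, both highest in proximal 3. PDGFRB was at 8.3 to 15 CPM and PDGFRA at 0.244 to 1.28 CPM, so the sum does not measure fibroblast content. The 6 adipocyte, 5 endothelial, 6 myeloid and 4 red cell markers in the table each summed to at most 5.8 CPM.

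The respiratory chain genes were expressed at closely similar levels in distal and proximal tumour. None of the 95 genes with enough reads for the test passed it, in either genome (edgeR quasi-likelihood test, Benjamini-Hochberg adjusted over all 13382 genes tested; lowest adjusted p among the 95 genes 0.9997). The test called 0 of all 13382 genes, or 0%, so the absence of calls sets these genes apart from no others. At an unadjusted p under 0.05 it had 178 genes, 0 of them of the respiratory chain, while DESeq2 called 1 gene and limma-voom 0, none of them of the respiratory chain. The 95% interval of the distal against proximal fold change lay within 1.5-fold in either direction for 89 of the 95 genes. Among genes of at least 10 CPM on average, this held for 74 of 75 nuclear and 13 of 13 mitochondrially encoded respiratory chain genes, against 8641 of 9496 other genes (91%). In bulk tissue, fewer cells of a type and less RNA per cell cannot be told apart, and this applies to each value below.

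Distal and proximal CPM did not overlap for 5 of the 95 genes (5.26%), against 841 of 13382 genes (6.28%), a share near that of the whole table. Of these 5 genes, 4 were higher in distal tumour. NDUFB1, NDUFB2 and NDUFC1 are accessory subunits of complex I, and ATP5ME is a membrane subunit of ATP synthase. NDUFB1 had 46, 45.9 and 46.2 CPM in distal libraries, against 44.6, 39.9 and 34.1 CPM in proximal libraries. NDUFB2 had 52.1, 59.5 and 53.3 CPM in distal and 51.4, 48.5 and 50.6 CPM in proximal libraries. The gap between the groups was thus narrow for both, and the proximal libraries spread more than the distal ones for NDUFB1. NDUFC1 had 29.4, 31.5 and 29.4 CPM in distal and 26.8, 28.1 and 27.9 CPM in proximal libraries. ATP5ME had 63.5, 60.6 and 60 CPM in distal and 58.8, 56.4 and 51.4 CPM in proximal libraries. NDUFA10, another accessory subunit of complex I, was the 1 gene lower in distal tumour without overlap, at 135, 135 and 131 CPM in distal libraries and 137, 145 and 142 CPM in proximal libraries. Its log2 fold change was -0.08 (SE 0.07), and that of NDUFB1 was 0.22 (SE 0.11).

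**Figure D1:**
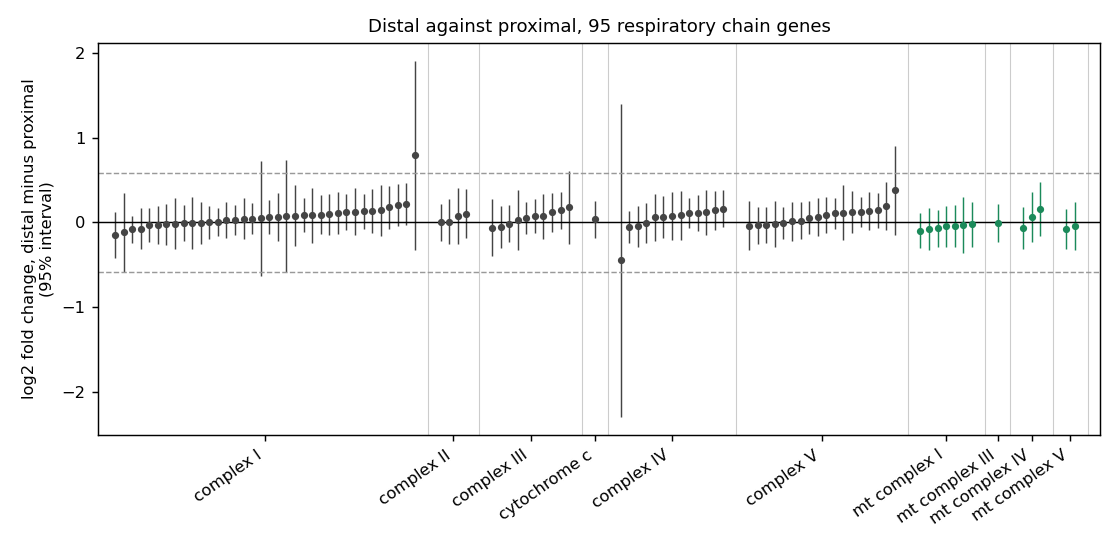
Log2 fold change of distal minus proximal for the 95 respiratory chain genes tested, grouped by complex along the x axis, with nuclear genes in grey and mitochondrially encoded genes (mt) in green. Points are edgeR estimates, bars are 95% intervals and dashed lines mark 1.5-fold; 89 of the 95 intervals lie inside the dashed lines, and the widest are those of NDUFA4L2 and NDUFA7, the 2 tested genes with the fewest reads.

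Summed over the 89 nuclear genes, the libraries held 10505, 10364 and 10144 CPM in distal tumour, against 10865, 9708 and 9393 CPM in proximal tumour. The means were 10338 ± 182 CPM in distal and 9989 ± 775 CPM in proximal libraries (SD, n = 3 each). The 3 distal libraries lay between the highest and the middle proximal library, so the groups overlapped and the difference was smaller than the proximal spread. The 13 mitochondrially encoded genes summed to 23842, 25798 and 23137 CPM in distal libraries and to 23578, 28092 and 22134 CPM in proximal libraries. Their means were 24259 ± 1379 CPM in distal and 24602 ± 3108 CPM in proximal libraries (SD, n = 3 each), again within the spread. As shares of all counts, the mitochondrially encoded genes took 2.37, 2.59 and 2.34% in distal and 2.33, 2.78 and 2.23% in proximal libraries, while the nuclear genes took between 1.03 and 1.04% in distal and between 0.948 and 1.08% in proximal libraries.

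**Figure D2:**
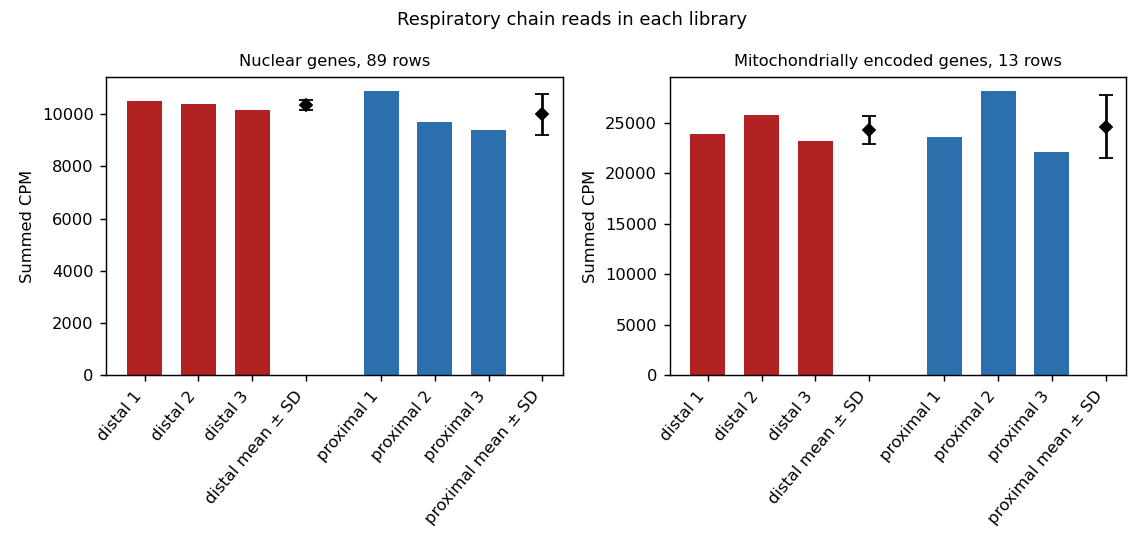
Summed CPM of the 89 nuclear (left) and 13 mitochondrially encoded (right) respiratory chain genes in each library, with the mean and SD of each group (n = 3) as a diamond and bar beside it. Distal libraries span 10144 to 10505 CPM for the nuclear genes and lie within the proximal range of 9393 to 10865 CPM; proximal 2 has the highest mitochondrial sum at 28092 CPM.

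Nuclear and mitochondrially encoded genes differed in which libraries were high. Of the 82 nuclear genes tested, 35 had their highest level in proximal 1 and 38 their lowest in proximal 3. Of the 13 mitochondrially encoded genes, 12 had their highest level in proximal 2, where only 3 nuclear genes did and 22 had their lowest. The median deviation of the nuclear genes from their own mean on the log2(CPM + 0.1) scale was 0.06, 0.05 and -0.02 in distal libraries and 0.10, -0.05 and -0.14 in proximal libraries. For the mitochondrially encoded genes it was -0.03, 0.12 and -0.13 in distal libraries and -0.04, 0.20 and -0.07 in proximal libraries. The ratio of mitochondrial to nuclear summed CPM was therefore highest in proximal 2, at 2.89, and lowest in proximal 1, at 2.17, with the distal libraries between them at 2.27, 2.49 and 2.28.

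Of 82 nuclear genes, 58 had a positive log2 fold change (median 0.06), as did 51.6% of all genes tested (median 0.01), and 2 of 13 mitochondrially encoded genes did (median -0.04). The mitochondrial count rested on single libraries: it was 12 of 13 without proximal 2, 8 without distal 3 and 1 without proximal 3. Without proximal 3, 48 of 82 nuclear genes had positive values, with a median of 0.02. Genes with short coding sequences showed the nuclear pattern to a smaller degree. Of 4 classes of equal size by coding length, the shortest held 70 of the 82 nuclear genes. The 3237 other genes of that class had median deviations of 0.03, 0.03 and 0.00 in distal and 0.04, -0.02 and -0.05 in proximal libraries, with a median log2 fold change of 0.03. The longest class had deviations of the opposite sign in all 6 libraries and a median log2 fold change of -0.03. The part of length in the nuclear pattern was not tested.

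**Figure D3:**
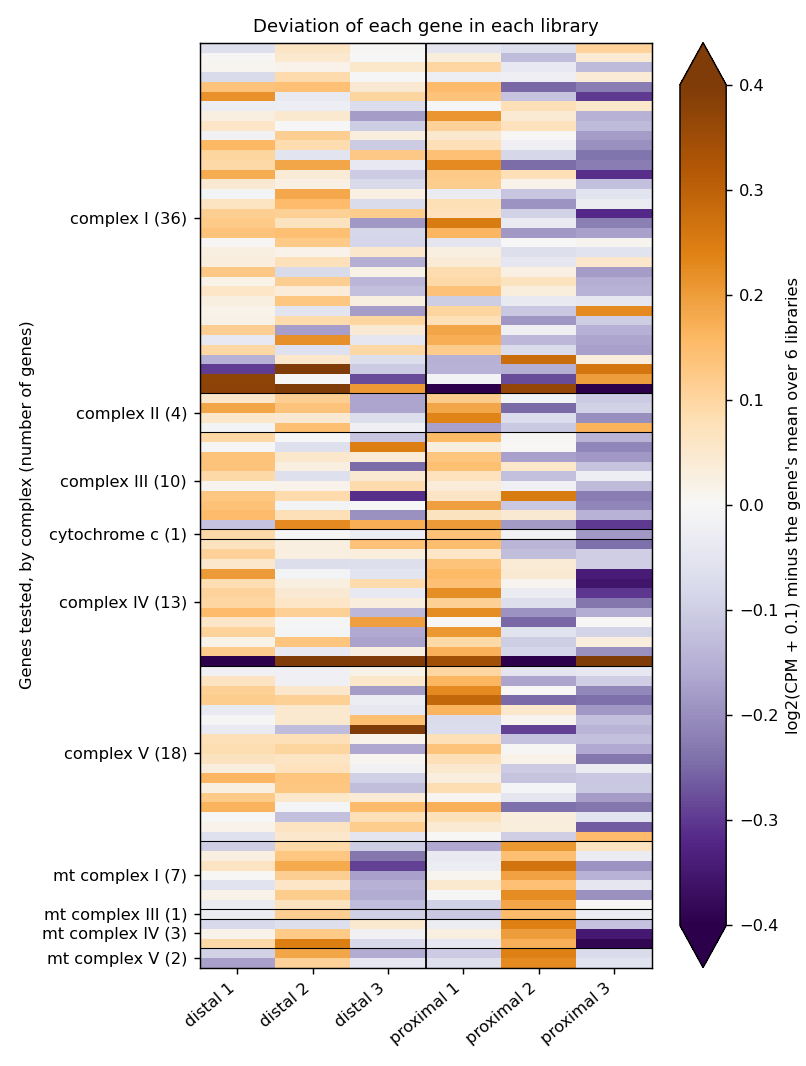
Deviation of log2(CPM + 0.1) from the gene's own mean over 6 libraries, for the 95 genes tested in rows by complex and the libraries in columns, with a colour scale cut at 0.4 in either direction. Of 82 nuclear rows, 69 are above their mean in proximal 1 and 14 in proximal 3, while all 13 mitochondrially encoded (mt) rows are above it in proximal 2.

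Complex I, the NADH dehydrogenase, had 36 nuclear genes, all tested. They summed to 3341, 3432 and 3273 CPM in distal and 3409, 3173 and 3208 CPM in proximal libraries. Of the 36 genes, 25 had positive log2 fold changes, with a median of 0.06. NDUFV1, the flavin-binding subunit that oxidises NADH, had the most reads of any nuclear subunit, at 881, 960 and 924 CPM in distal and 891, 881 and 989 CPM in proximal libraries. The groups overlapped fully, and the log2 fold change was 0.00 (SE 0.09). NDUFS5, an accessory subunit, had 152, 153 and 143 CPM in distal and 154, 116 and 119 CPM in proximal libraries, so that proximal 1 matched the distal level. Its log2 fold change was 0.20 (SE 0.11). NDUFS7, an iron-sulfur subunit near the ubiquinone site, had 24, 22.9 and 20.9 CPM in distal and 25.5, 22 and 27.8 CPM in proximal libraries. Its log2 fold change was -0.15 (SE 0.12).

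Complex II, succinate dehydrogenase, summed to 454, 463 and 387 CPM in distal and 474, 405 and 399 CPM in proximal libraries. SDHC, a membrane anchor, had the most reads, at 254, 265 and 218 CPM in distal and 266, 243 and 228 CPM in proximal libraries, and a log2 fold change of 0.00 (SE 0.10). SDHB, the iron-sulfur subunit, had 125, 121 and 97.9 CPM in distal and 125, 92.4 and 103 CPM in proximal libraries. SDHA, the flavoprotein that oxidises succinate, had 14.2, 15.9 and 14.2 CPM in distal and 12.7, 13.3 and 16.1 CPM in proximal libraries. None of the 4 genes separated the groups, and per kilobase of coding sequence SDHA stood at 7.23 CPM against 132 CPM for SDHB, 485 CPM for SDHC and 125 CPM for SDHD.

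Complex III, the cytochrome bc1 complex, summed to 1268, 1194 and 1188 CPM in distal and 1289, 1176 and 1073 CPM in proximal libraries. UQCRC2, a core subunit on the matrix side, was the most abundant, at 376, 352 and 326 CPM in distal and 392, 354 and 319 CPM in proximal libraries. UQCRH, the hinge protein that binds cytochrome c1, had 198, 187 and 185 CPM in distal and 198, 160 and 159 CPM in proximal libraries, a log2 fold change of 0.14 (SE 0.10). UQCRB had a value of 257 CPM in distal 3, above the 187 to 221 CPM of the other 5 libraries, and its log2 fold change of 0.12 (SE 0.10) turned to -0.05 when distal 3 and proximal 3 were left out. UQCRFS1, the Rieske iron-sulfur protein, and UQCR10, a small subunit, had log2 fold changes of -0.05 (SE 0.11) and -0.06 (SE 0.15). CYCS, cytochrome c, which carries electrons between complexes III and IV, had 495, 463 and 458 CPM in distal and 512, 460 and 408 CPM in proximal libraries, and the distal values lay inside the proximal range.

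Complex IV, cytochrome c oxidase, had 18 nuclear rows, counting NDUFA4, now assigned to it, and NDUFA4L2. The 18 rows summed to 1618, 1531 and 1521 CPM in distal and 1660, 1441 and 1328 CPM in proximal libraries. NDUFA4 and COX4I1, which binds early in assembly, were the most abundant. NDUFA4 had 218, 212 and 229 CPM in distal and 230, 189 and 176 CPM in proximal libraries. COX4I1 had 220, 208 and 209 CPM in distal and 213, 187 and 191 CPM in proximal libraries, a log2 fold change of 0.11 (SE 0.08). COX5A, which sits on the matrix side, had 91, 87.1 and 100.1 CPM in distal and 87.4, 73.4 and 87.4 CPM in proximal libraries, and the groups overlapped at a single distal library. COX7A2L, which takes part in joining complexes III and IV, had a log2 fold change of -0.05 (SE 0.09).

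Complex V, the ATP synthase, had 20 nuclear rows that summed to 3328, 3282 and 3318 CPM in distal and 3521, 3053 and 2977 CPM in proximal libraries. ATP5F1B, the catalytic beta subunit, had 821, 822 and 843 CPM in distal and 890, 804 and 809 CPM in proximal libraries, a log2 fold change of -0.01 (SE 0.08). ATP5F1D, the delta subunit of the central stalk, and ATP5MG, a membrane subunit, had log2 fold changes of -0.04 (SE 0.13) and -0.03 (SE 0.10). The ring that turns in the membrane is made of c subunits. That subunit is encoded by 3 separate genes, ATP5MC1 on chromosome 17 (GRCh38 positions 48892765 to 48895871, plus strand), ATP5MC2 on chromosome 12 (53632726 to 53677408, minus strand) and ATP5MC3 on chromosome 2 (175176258 to 175184607, minus strand). The mature proteins are the same and only the targeting sequences that are cut off differ. The 225 bases that code for the mature 75 residues are shown here from the GENCODE v29 transcripts, to show how far reads of the 3 genes can be told apart, with capitals at each base that is not the same in all 3:
ATP5MC1: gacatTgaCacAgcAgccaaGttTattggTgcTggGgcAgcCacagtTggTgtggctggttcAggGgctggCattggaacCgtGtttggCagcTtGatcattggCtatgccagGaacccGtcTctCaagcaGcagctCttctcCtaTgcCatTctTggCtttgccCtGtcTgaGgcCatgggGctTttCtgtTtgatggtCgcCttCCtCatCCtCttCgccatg
ATP5MC2: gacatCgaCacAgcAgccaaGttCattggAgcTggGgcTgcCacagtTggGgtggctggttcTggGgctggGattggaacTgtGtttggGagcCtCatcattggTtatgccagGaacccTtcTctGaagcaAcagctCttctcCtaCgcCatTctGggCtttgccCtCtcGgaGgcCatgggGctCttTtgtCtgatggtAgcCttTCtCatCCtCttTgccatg
ATP5MC3: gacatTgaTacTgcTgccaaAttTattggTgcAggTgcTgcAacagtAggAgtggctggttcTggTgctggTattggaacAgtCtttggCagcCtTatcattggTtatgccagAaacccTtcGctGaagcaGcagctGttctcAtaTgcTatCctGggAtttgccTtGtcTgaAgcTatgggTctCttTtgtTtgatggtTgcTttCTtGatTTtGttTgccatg
The 3 stretches code for the same 75 residues, with 0 differences, while 173 of the 225 bases are the same in all 3. The longest run of identical bases between any pair was 17, and no longer stretch is the same in any pair. Pseudogenes were not part of this comparison. They share 26.5% of the coding 31-base words of ATP5MC1, 28.8% of those of ATP5MC2 and 6.1% of those of ATP5MC3. How reads of such words were counted is not given in the sources used here.

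ATP5MC3 had the largest log2 fold change of the complex V genes and was the sole gene of at least 10 CPM on average whose interval reached past 1.5-fold. It had 142, 132 and 231 CPM in distal libraries and 138, 118 and 131 CPM in proximal libraries. The log2 fold change of 0.38 (SE 0.22) rested on distal 3 and was 0.08 without that library. Distal 3 is also the library with 2990 CPM of skeletal muscle markers, and the part of muscle RNA in the ATP5MC3 value was not tested. ATP5MC1 had 70.1, 71.9 and 67.9 CPM in distal and 70.9, 63.8 and 67.2 CPM in proximal libraries. ATP5MC2 had 160, 166 and 177 CPM in distal and 152, 161 and 147 CPM in proximal libraries, so distal 3 was its highest library too, by a smaller margin. ATP5MC3 thus made up 48.4% of the counts of the 3 genes in distal 3, against 34.5 to 38.2% in the other 5 libraries.

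The mitochondrial genome encodes 7 subunits of complex I, 1 of complex III, 3 of complex IV and 2 of complex V, and all 13 genes were tested. MT-CO1, the catalytic subunit of complex IV that holds the site where oxygen is reduced, was the most abundant, at 6562, 6643 and 7164 CPM in distal and 6805, 8201 and 6378 CPM in proximal libraries. MT-CO2, which takes electrons from cytochrome c, had 2480, 2758 and 2205 CPM in distal and 2264, 2623 and 1783 CPM in proximal libraries, and the log2 fold change was 0.16 (SE 0.14). MT-CO3 had 3164, 3410 and 3105 CPM in distal and 3187, 3595 and 2463 CPM in proximal libraries, with a log2 fold change of 0.07 (SE 0.13). These 2 genes were the ones with positive values, and both were lowest in proximal 3, where they made up 19.2% of the mitochondrial counts against 22.1 to 23.9% in the other 5 libraries.

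The 7 MT-ND genes, which form the proton-pumping membrane arm of complex I, had log2 fold changes between -0.10 (MT-ND6) and -0.02 (MT-ND3). MT-ND4 had 2534, 2898 and 2533 CPM in distal and 2427, 3137 and 2838 CPM in proximal libraries. MT-ND2 had 1445, 1568 and 1131 CPM in distal and 1358, 1663 and 1211 CPM in proximal libraries, lowest in distal 3, where MT-CO1 stood second of the 6 libraries. The ratio of MT-CO1 to MT-ND2 was accordingly 6.34 in distal 3, against 4.24 to 5.27 in the other 5 libraries. MT-CYB, the mitochondrial subunit of complex III, had 1374, 1520 and 1313 CPM in distal and 1300, 1558 and 1376 CPM in proximal libraries, with a log2 fold change of -0.01 (SE 0.10). The log2 fold change was -0.04 (SE 0.13) for MT-ATP6, which forms the proton path of ATP synthase beside the c ring, and -0.07 (SE 0.11) for MT-ATP8, whose reading frame overlaps that of MT-ATP6. MT-ND5 and MT-ND6, which lie side by side on opposite strands, had 1758, 1890 and 1470 CPM and 602, 651 and 565 CPM in distal libraries, against 1687, 1909 and 1693 CPM and 647, 690 and 606 CPM in proximal libraries. The strand setting of the counting was not given in the sources used here, so MT-ND6 reads cannot be told apart from reads of the opposite strand.

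Per kilobase of coding sequence, the mitochondrially encoded genes stood between 959 CPM (MT-ND5) and 4513 CPM (MT-CO1). The highest nuclear genes were CYCS at 1479, ATP5F1E at 1195 and NDUFA4 at 860 CPM per kilobase. These scaled levels place reads of untranslated parts on the coding length. For CYCS, the transcript used has 4098 bases around a coding sequence of 315 bases. MT-CO1 shares 66.7% of its 31-base words with other annotated genes, chiefly the nuclear copy MTCO1P12, and how reads of such words were counted is not given in the sources used here.

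The muscle forms of complex IV subunits were at or near 0 in every library. COX6A1 is the general form and COX6A2 the heart and skeletal muscle form of the same subunit. COX6A1 had 61, 54.8 and 57.2 CPM in distal and 63.2, 52.9 and 49 CPM in proximal libraries (exact two-sided permutation test, p = 0.5). COX6A2 had 0, 0 and 2 reads in distal and 0, 2 and 2 reads in proximal libraries (exact permutation p = 1), all below the 3 reads taken as the floor. COX7A2, the general form, had 100.1, 97.4 and 82.1 CPM in distal and 105, 78.9 and 81 CPM in proximal libraries (exact permutation p = 0.8). COX7A1, the muscle form, had 0 reads in the 3 distal libraries and 1, 0 and 0 reads in the proximal libraries. With reads in a single library, every split of 3 against 3 gives the same difference, so the permutation test cannot decide for COX7A1. For the other genes, the smallest p this test can give with 3 libraries against 3 is 0.1. The 6 reads of COX6A2 correspond to 0.0451 CPM over all libraries (95% exact Poisson interval 0.0165 to 0.0981, counting error only), and the antisense neighbour AC026471.5 covers 46% of its exons. Per kilobase of coding sequence, COX6A1 stood at 172 CPM against 0.174 CPM for COX6A2, and COX7A2 at 263 CPM against 0.0272 CPM for COX7A1. COX6A1 shares 89.2% of its coding words with other annotated genes, chiefly the pseudogene COX6A1P2.

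In distal 3, the library with the most muscle reads, ACTA1, the skeletal muscle actin, was at 302 CPM and CKM, the muscle creatine kinase, at 101 CPM, while COX6A2 had 2 reads and COX7A1 had 0. A count of 0 in that library allows up to 0.183 CPM. MB, the myoglobin gene of oxidative muscle fibres, had 13 reads in distal 3, 0 in proximal 3 and at most 1 in the other libraries. In distal 3, MYH7, the slow muscle myosin, had 1735 reads, while TCAP and TNNI1, of the same marker list, had 23 and 17. How host reads were treated is not given in the sources used here, so few reads of a gene do not show its absence.

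The testis forms had at most 5 reads in any library. COX6B2, typical of testis, had 0, 5 and 2 reads in distal and 1, 2 and 2 reads in proximal libraries, while its general form COX6B1 stood between 129 and 135 CPM in distal and between 107 and 136 CPM in proximal libraries. COX6B2 shares 87.6% of its coding 31-base words with AC020922.1, which also covers 30.9% of its exons on the same strand. Few reads therefore do not show that COX6B2 was absent. COX7B2 had 2, 0 and 0 reads in distal and 0, 0 and 0 reads in proximal libraries, and COX8C had 4, 0 and 0 reads in distal and 0, 1 and 5 reads in proximal libraries. Their general forms COX7B and COX8A had 102 to 147 CPM and 50.9 to 62.8 CPM over the 6 libraries. NDUFA4L2, a relative of NDUFA4 known to be induced by hypoxia, had 1, 14 and 8 reads in distal and 12, 3 and 20 reads in proximal libraries. It passed the filter, and its log2 fold change of -0.45 (SE 0.83) had a 95% interval from -2.30 to 1.41, too wide to show a direction. With ATP5MGL and with ATP5MF-PTCD1, an annotated read-through of neighbouring genes, the forms above other than NDUFA4L2 made up the 7 rows too sparse for the test. COX4I2, the hypoxia-linked relative of COX4I1, had no row under that symbol in the count table, so its level is not known here.

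**Figure D4:**
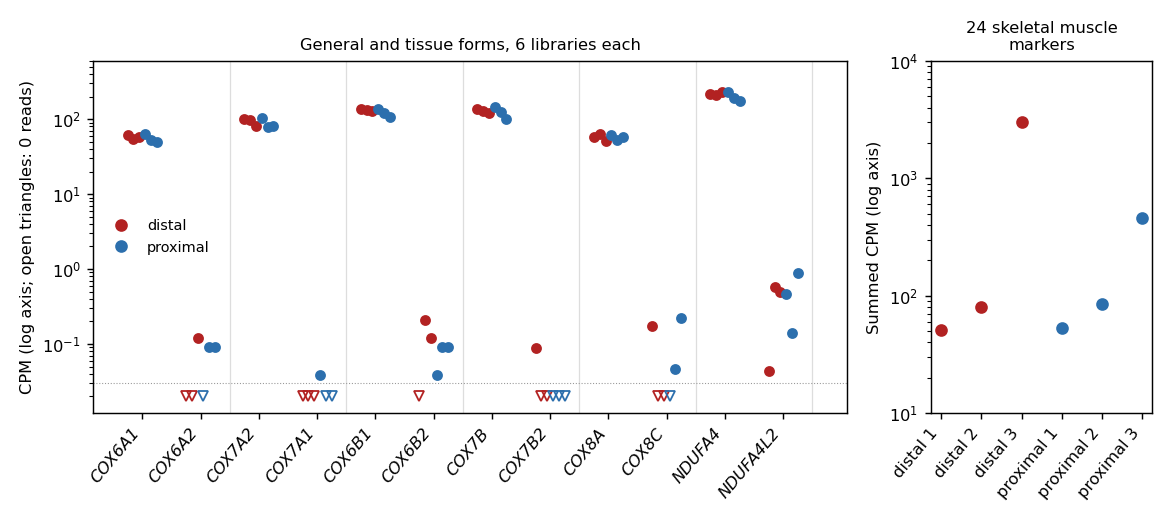
Left, CPM on a log axis of general forms beside their tissue forms, with each library as a point (distal red, proximal blue) and 0 reads as open triangles under the dotted line. Right, summed CPM of the 24 skeletal muscle markers in each library on a log axis; distal 3 reaches 2990 CPM, while COX6A2 and COX7A1 stay at no more than 0.122 CPM in every library.

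The promoters of the COX6A pair are shown because the general form was counted at 49 to 63.2 CPM and the muscle form at no more than 2 reads a library. The sequences are the 250 bases before the RefSeq start (GRCh38.p14), with motif matches in capitals. COX6A1 lies at chr12:120437863-120438112 on the plus strand, with the NRF1 core GCATGCGC on both strands and the ETS motif CCGGAAG on the minus strand. COX6A2 lies at chr16:31428361-31428610 on the minus strand, with the E-box CAGCTG:
COX6A1: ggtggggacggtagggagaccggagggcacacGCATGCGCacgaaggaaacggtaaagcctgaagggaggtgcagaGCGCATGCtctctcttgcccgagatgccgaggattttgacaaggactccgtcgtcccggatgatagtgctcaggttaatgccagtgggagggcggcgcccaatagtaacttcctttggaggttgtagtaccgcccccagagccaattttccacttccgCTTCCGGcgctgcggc
COX6A2: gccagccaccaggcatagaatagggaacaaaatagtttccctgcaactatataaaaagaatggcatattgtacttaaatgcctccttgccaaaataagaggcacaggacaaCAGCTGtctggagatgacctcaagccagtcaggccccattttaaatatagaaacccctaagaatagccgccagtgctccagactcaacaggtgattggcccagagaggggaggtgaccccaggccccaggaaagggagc
Both windows reach into the first exon as annotated in GENCODE v29. NRF1, the ETS factor GABP and YY1 are known regulators of nuclear respiratory genes, and E-boxes are bound by muscle transcription factors among many others. RefSeq promoters of 300 bases, 250 before and 50 after the start, matched 72 of the 89 nuclear genes, 4 of them through a synonym on the same chromosome and strand. On either strand, the NRF1 core was in 14 of the 72 (19.4%) and in 3.05% of all 35116 promoters. CCGGAAG was in 20 (27.8%) against 10.3%, and AANATGGCG, for YY1, in 16 (22.2%) against 3.19%. At least 1 of these 3 was in 36 (50%) against 15.1%, and CAGCTG was in 15 (20.8%) against 17.9%. The COX6A1 window of 300 bases held all of the first 3 motifs and COX6A2 none of them. These are matches of letters, not measured binding. The 4 motifs were picked from textbook knowledge after promoters of some of these genes had been looked at.

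Some subunits of a complex were counted at far lower levels than their partners. Per kilobase of coding sequence, NDUFA7 had 1.99, NDUFV2 3.76, NDUFA13 6.67, SDHA 7.23, NDUFA11 12.4 and NDUFA9 19.2 CPM, whereas NDUFV1, which binds NDUFV2 directly in complex I, had 662 CPM. These low genes share part or all of their coding sequence with other annotated genes. The share of 31-base coding words found in another gene was 100% for NDUFA7 (with AC010323.1) and for NDUFV2 (with AP005263.1), 98.5% for NDUFA13 (with AC011448.1), 88.1% for NDUFA9, 72.3% for NDUFA11 and 44.3% for SDHA, chiefly with the pseudogene SDHAP1. Without the tissue forms, 27 nuclear genes shared no coding words and had a median of 142 CPM per kilobase, with 0 of them under 20. The 35 genes that shared up to 50% had a median of 277 CPM per kilobase, with SDHA and the untested ATP5MGL under 20, the 11 that shared 50 to 80% had 250 CPM, and the 10 that shared over 80% had 23 CPM, with 5 of these 10 under 20, among them the untested ATP5MF-PTCD1. Shared sequence did not go with a low level in each case: UQCR11, at 100%, had 70.3 CPM and SDHD, at 95.5%, had 125 CPM per kilobase. The levels of genes with shared sequence are therefore uncertain.

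**Figure D5:**
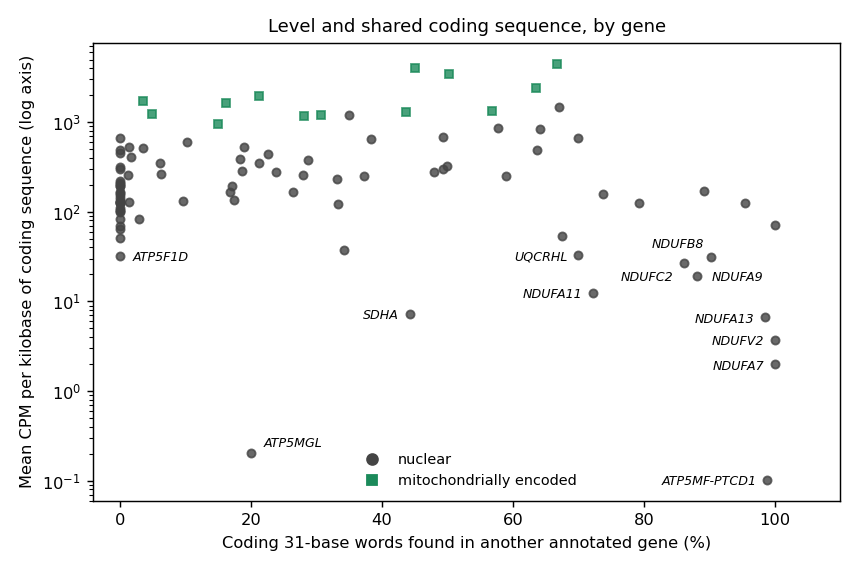
Mean CPM per kilobase of coding sequence (log axis) against the share of coding 31-base words also found in another annotated gene, for nuclear (grey circles) and mitochondrially encoded (green squares) respiratory chain genes, tissue forms left out. Named genes lie under 35 CPM per kilobase; NDUFA7, NDUFV2 and NDUFA13 combine shares of 98.5% or more with 1.99 to 6.67 CPM per kilobase.

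Of these low genes, NDUFA7 had the largest log2 fold change among the 95 genes, 0.79 (SE 0.50, 95% interval -0.33 to 1.91). It had 0.837, 0.989 and 0.733 CPM in distal and 0.387, 0.831 and 0.269 CPM in proximal libraries, and proximal 2 lay inside the distal range. NDUFV2 had 3.61, 2.76 and 2.26 CPM in distal and 2.75, 2.26 and 3.19 CPM in proximal libraries, and NDUFA13 had 2.29, 3.87 and 2.63 CPM in distal and 2.55, 2.54 and 3.41 CPM in proximal libraries. UQCRHL, a copy of UQCRH with 70% of its coding words shared, had 7.14 to 10.3 CPM over all libraries. Together with NDUFA4L2 and ATP5MC3, these 4 genes made up the 6 whose intervals reached past 1.5-fold.

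Genes that build, regulate or feed the chain did not pass the test either. None of the 8 lists had a gene called. The complex I assembly factors had 14 of 21 genes with positive log2 fold changes (median 0.05), as had 6 of the 10 tested factors for complexes II and III (median 0.04) and 14 of 26 for complex IV (median 0.01). UQCC2, an assembly factor of complex III, had 68.9, 78.6 and 86.5 CPM in distal and 67.2, 69.4 and 65.9 CPM in proximal libraries, a log2 fold change of 0.21 (SE 0.10), with a single distal library inside the proximal range. COX17, the copper chaperone of complex IV, had 23.4, 20 and 18.8 CPM in distal and 18.6, 18.9 and 14.5 CPM in proximal libraries. Of 6 complex V assembly factors, 2 had positive values, and FMC1 had 1.89, 0.618 and 1.1 CPM in distal and 0.658, 0.554 and 0.629 CPM in proximal libraries.

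Of 22 genes for mitochondrial transcription, replication and RNA, 11 had positive log2 fold changes (median -0.02). Of 10 biogenesis regulators tested, 6 had positive values (median 0.03). NRF1, a transcription factor for nuclear respiratory genes, had 25.1, 22.2 and 28.2 CPM in distal and 21.5, 22.1 and 21.2 CPM in proximal libraries. The groups did not overlap, though 22.2 CPM in distal 2 stood close to 22.1 CPM in proximal 2. NRF1 was the 1 regulator of 10 without overlap (10%), against 841 of 13382 genes (6.28%). The assembly factor lists for complexes I to IV and the transcription list also held genes without overlap, some higher and some lower in distal tumour. The log2 fold change of NRF1 was 0.22 (SE 0.12, adjusted p 0.9997 by edgeR). PPARGC1B, a coactivator of the same programme, had 37.9, 43.3 and 42.7 CPM in distal and 41.7, 48.4 and 51.5 CPM in proximal libraries, a log2 fold change of -0.19 (SE 0.11). Of 18 citric acid cycle genes, which supply NADH and succinate, 10 had positive values (median 0.01), with IDH3B at 0.14 (SE 0.08). Of 24 genes for coenzyme Q synthesis and electron entry, 13 had positive values (median 0.01), among them COQ4 at 0.21 (SE 0.12).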

How the data were processed

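Per the submitters' processing notes, the tools on GRCh38 included STAR 2.7.3a, featureCounts 2.0.1, Trimmomatic 0.39, DESeq2 and bcl2fastq, with no role or order given. The deposited counts are whole numbers of reads per gene in 6 libraries, made by the authors. The annotation, strand setting, treatment of reads that fit several genes and of host reads were not given in the sources used here. PCR copies were not marked, so the Poisson intervals and the floors cover counting error only. The 95% intervals of the fold changes come from the edgeR fit and include the spread between libraries.

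The members and all lists were chosen with earlier results of these data known. NDUFA4 and NDUFA4L2 were counted with complex IV. Counts were filtered by expression and tested with edgeR 4.0.16 (robust quasi-likelihood, TMM scaling, Benjamini-Hochberg adjustment at 0.05) in R 4.3.3 as distal minus proximal, which left 13382 genes; it was tested on simulated data. DESeq2 1.42.0, limma 3.58.1 voom, other scalings and filters, a replicate block, a muscle covariate and left-out libraries were the alternatives. Symbols were matched to GENCODE v29 for 16800 of 17081 genes (98.4%) and all 102 members. For levels per kilobase and shared words, the coding sequence is that of a single transcript per gene. That transcript was chosen by the tags of the annotation, with transcript length as the last criterion. The length classes used the longest coding sequence of each gene. The text names every mitochondrially encoded gene, the genes of the tissue form families, per complex and direction the 2 nuclear genes of lowest p, per complex the 1 with the most reads, members with 0 reads in some library and genes of the lists by lowest p. Genes without overlap, at low level per kilobase or standing out in 1 library were singled out after their values were seen. No library pair agreed within sampling noise.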

Additional observations from a re-analysis of the deposited data

How the results depend on the processing

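No respiratory chain gene was called under any alternative run: other scalings, filters and tools, the replicate block, the muscle covariate, an adjusted p of 0.01 and left-out libraries. Over all genes, DESeq2 called 1 gene and leaving out 1 library gave 0 to 1. The count of mitochondrially encoded genes with a positive log2 fold change, 2 of 13, was 7 under limma-voom with sample weights and between 1 and 12 when 1 library was left out. The nuclear count, 58 of 82, lay between 48 and 71 over left-out libraries. The labels do not say whether replicate numbers pair the samples. Same-numbered libraries had residual correlations of 0.361, -0.114 and 0.182 for numbers 1, 2 and 3, so not every pair was above 0.1, and distal 2 correlated best with proximal 1 (0.132). The samples were therefore treated as unpaired, which does not show that they are. With the replicate block 0 genes were called, 59 of 82 nuclear and 2 of 13 mitochondrially encoded genes were positive and 286 genes had an unadjusted p under 0.05. Of 773 log2 fold changes of 43 named genes under alternatives, 771 moved by less than 1 SD between replicates, and 78 changed sign, with a smallest adjusted p of 0.9979. Depth limits the tissue forms, where 3 reads stand for 0.116 to 0.183 CPM.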
